A study of Rattus norvegicus with 12 samples.

Results

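Pdk4, Ucp2, Ucp3, Acot1, Acot2 and Angptl4, 6 genes known as targets of the nuclear receptor PPAR-alpha, were followed in the left ventricles of rats that had received a VEGF-B vector or a control vector. The members were found by their gene symbols in the annotation of the array. They were carried by 7 of the 22517 probes, 2 of them for Angptl4, and each gene was represented by its probe with the highest mean signal over the 12 arrays. The array named 13336 genes in all. Of the 6 members, 5 were bright enough to be tested, and Angptl4 was not.

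The treated rats (AAV-VEGF-B, n = 6) had been injected in the tail vein with an adeno-associated virus of serotype 9 encoding human VEGF-B, a secreted ligand of the VEGF family. The study made vectors for both main forms of the protein, and neither the form nor the promoter used here was given in the sources. The controls (AAV-HSA, n = 6) received the same kind of virus encoding human serum albumin. Each group consisted of 3 females with 2 months of expression and 3 males with 4 months of expression, all of Wistar background. The males had been injected a second time during the experiment, so sex, time of expression and number of injections cannot be told apart here. Whole ventricular tissue was measured, with 1 heart per array and 1 colour, so fewer cells of a type and less RNA per cell cannot be told apart. Ages at sampling were not given in the sources used here.

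PPAR-alpha is activated by fatty acids, pairs with a retinoid X receptor (RXR), and turns on genes for fatty acid uptake and oxidation. The heart draws most of its energy from fatty acids and expresses this program strongly. Pdk4 encodes pyruvate dehydrogenase kinase 4, which phosphorylates and inactivates the pyruvate dehydrogenase complex and so restrains the oxidation of glucose. Ucp2 and Ucp3 encode uncoupling proteins of the inner mitochondrial membrane. Acot1 and Acot2 encode acyl-CoA thioesterases, Acot1 in the cytosol and Acot2 in mitochondria, which release free fatty acids from acyl-CoA. Angptl4 encodes a secreted inhibitor of lipoprotein lipase.

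In the rat assembly GRCr8, Ucp3 and Ucp2 are neighbours on chromosome 1, at chr1:164227910-164240893 and chr1:164251373-164257742. Acot2 and Acot1 are neighbours on chromosome 6, at chr6:109341426-109352818 and chr6:109367274-109375268. Pdk4 lies at chr4:34558327-34568329 and Angptl4 at chr7:15252450-15259971. The 2 thioesterases are close paralogs, and whether their probes also bind the RNA of the neighbour was not tested.

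PPAR-alpha and RXR bind as a pair to direct repeats of the hexamer AGGTCA with 1 base between them (AGGTCANAGGTCA). These letters were searched on both strands in the 250 bases before 1 transcript start per gene, as given by RefSeq (GRCr8). For Acot2 and Angptl4 that start, and the window before it, lies inside the gene span printed above, and for the other members it is the edge of the span. The full repeat was found in 0 of the 6 members and in 0.0508% of 33469 rat promoters of the same length. The hexamer alone was found in Ucp3 only, against 14.1% of all promoters. A match is a description of the letters, and binding sites farther from the start were outside these windows. Only exact letters were counted. A repeat this rare would be absent from nearly any 6 promoters, so its absence says nothing about these genes. The window of Ucp3 (chr1:164227660-164227909, plus strand) is printed because it holds 2 copies of the hexamer, in capitals, which begin 155 and 50 bases before the start. The window of Pdk4 (chr4:34568330-34568579, minus strand), the member with the lowest change, holds none and is printed beside it in lower case.
Ucp3: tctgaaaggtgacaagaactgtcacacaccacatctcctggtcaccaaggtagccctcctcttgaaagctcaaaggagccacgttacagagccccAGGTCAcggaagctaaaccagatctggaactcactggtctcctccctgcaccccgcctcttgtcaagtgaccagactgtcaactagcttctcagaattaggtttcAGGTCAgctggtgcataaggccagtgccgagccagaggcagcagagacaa
Pdk4: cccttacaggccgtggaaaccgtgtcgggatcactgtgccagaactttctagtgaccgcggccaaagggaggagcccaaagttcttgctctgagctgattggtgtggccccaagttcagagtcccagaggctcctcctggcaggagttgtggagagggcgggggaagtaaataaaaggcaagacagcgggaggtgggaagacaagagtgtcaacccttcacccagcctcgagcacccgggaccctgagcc

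Array signals ran from 97.1 to 45492.6, with medians of 151.8 to 179.6 per array, and 39.2% to 43.5% of the probes were above background (detection p under 0.05). Levels are given below as log2 of the background-corrected and quantile-normalized signal. A probe was tested if it was above background on at least 3 arrays, which left 10281. Levels of different probes cannot be compared with each other.

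The question of the first comparison was how the members differed between AAV-VEGF-B and AAV-HSA hearts. All 5 tested members had a lower mean in the AAV-VEGF-B hearts, with log2 changes between -0.65 and -0.17 and a median of -0.39. None of the 5 passed the test after adjustment over all probes (limma, adjusted p of 0.073 to 0.46), against 5.20% of all probes called in either direction. At an unadjusted p under 0.05, 4 of the 5 were lower, against 9.38% of all probes. Without background correction the changes kept their direction and the median was -0.23. A change below 0 was common on this array, at 56.2% of the probes, and the median change over all of them was -0.02.

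Pdk4, the kinase that restrains glucose oxidation, had the lowest change of the members. After 2 months its level was 9.0, 8.42 and 8.91 in AAV-VEGF-B hearts, against 9.91, 9.45 and 9.37 in AAV-HSA hearts. After 4 months it was 9.05, 9.64 and 9.45 in AAV-VEGF-B hearts, against 9.54, 9.61 and 10.51 in AAV-HSA hearts. Of the 6 AAV-VEGF-B hearts, 4 lay below every control, and the other 2, both from 4-month males, lay within the range of the controls. The mean was 9.08 ± 0.43 in AAV-VEGF-B hearts and 9.73 ± 0.42 in AAV-HSA hearts (SD, n = 6 each). The log2 change was -0.65 (SE 0.21, 95% interval -1.10 to -0.21), a ratio of 0.636. It missed the threshold (limma, adjusted p = 0.086), while the exact permutation test of this gene alone gave a two-sided p of 0.026. With the duration and sex group as a block it passed (adjusted p = 0.042). Over the other alternatives the adjusted p ran up to 0.17.

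**Figure D1:**
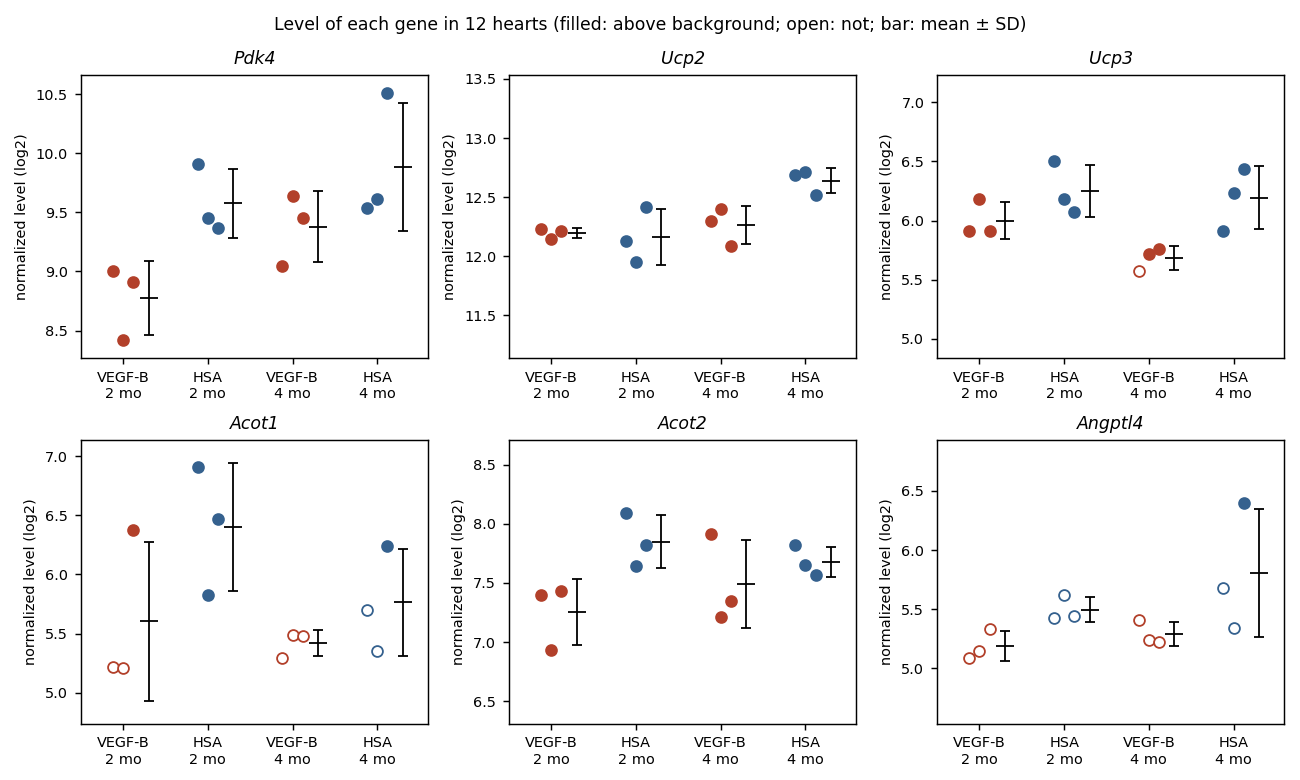
Normalized level (log2) of each gene in the 12 hearts, by vector and months of expression. Each point is 1 heart, filled where the probe was above background and open where it was not, and bars show the mean ± SD of 3 hearts. Every panel spans the same number of log2 units. The 3 AAV-VEGF-B hearts at 2 months lay below the 3 AAV-HSA hearts for Pdk4 and Acot2, and Angptl4 was above background in 1 AAV-HSA heart only.

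Ucp3, the uncoupling protein of muscle and heart, had levels close to the background. After 2 months it was 5.91, 6.18 and 5.91 in AAV-VEGF-B hearts, against 6.50, 6.18 and 6.07 in AAV-HSA hearts. After 4 months it was 5.57, 5.72 and 5.76 in AAV-VEGF-B hearts, against 5.91, 6.23 and 6.44 in AAV-HSA hearts. All 6 AAV-VEGF-B hearts lay below the mean of the controls, and 3 of them, the 4-month males, lay below every control. The probe was above background in 5 of 6 AAV-VEGF-B hearts and in 6 of 6 AAV-HSA hearts. The mean was 5.84 ± 0.21 in AAV-VEGF-B hearts and 6.22 ± 0.22 in AAV-HSA hearts (SD, n = 6 each). The log2 change of -0.38 (SE 0.12, 95% interval -0.63 to -0.13) missed the threshold (limma, adjusted p = 0.073; exact permutation test of the single gene, two-sided p = 0.017). It passed without the AAV-HSA heart of replicate 1 (adjusted p = 0.039) and without the AAV-VEGF-B heart of replicate 3 (adjusted p = 0.035).

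Ucp2, the more widely expressed uncoupling protein, was bright in every heart. After 2 months it measured 12.23, 12.15 and 12.21 in AAV-VEGF-B hearts, against 12.13, 11.95 and 12.42 in AAV-HSA hearts. After 4 months it measured 12.30, 12.40 and 12.09 in AAV-VEGF-B hearts, against 12.69, 12.71 and 12.52 in AAV-HSA hearts. The groups overlapped at 2 months and were separate at 4 months. Over all hearts the mean was 12.23 ± 0.11 in AAV-VEGF-B hearts and 12.40 ± 0.31 in AAV-HSA hearts (SD, n = 6 each). The log2 change of -0.17 (SE 0.12, 95% interval -0.43 to 0.09) was within the spread of the hearts (limma, adjusted p = 0.46; exact permutation test of the single gene, two-sided p = 0.22).

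Acot2, the mitochondrial thioesterase, was above background in all hearts. After 2 months it was 7.40, 6.93 and 7.43 in AAV-VEGF-B hearts, against 8.09, 7.64 and 7.82 in AAV-HSA hearts. After 4 months it was 7.91, 7.21 and 7.35 in AAV-VEGF-B hearts, against 7.82, 7.65 and 7.57 in AAV-HSA hearts. Of the AAV-VEGF-B hearts, 5 lay below every control, and the 1 exception was the male of replicate 2. The mean was 7.37 ± 0.32 in AAV-VEGF-B hearts and 7.77 ± 0.19 in AAV-HSA hearts (SD, n = 6 each). The log2 change of -0.39 (SE 0.14, 95% interval -0.68 to -0.10) missed the threshold (limma, adjusted p = 0.11; exact permutation test of the single gene, two-sided p = 0.03). Without the AAV-VEGF-B heart of replicate 2 it was -0.50 and passed (adjusted p = 0.021).

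Acot1, the cytosolic thioesterase, was dim. It was above background in 1 of 6 AAV-VEGF-B hearts and in 4 of 6 AAV-HSA hearts. It met the filter of 3 arrays only through the AAV-HSA hearts, so its tests give no support for a lower level. After 2 months it was 5.22, 5.21 and 6.38 in AAV-VEGF-B hearts, against 6.91, 5.83 and 6.47 in AAV-HSA hearts. After 4 months it was 5.29, 5.49 and 5.48 in AAV-VEGF-B hearts, against 5.70, 5.35 and 6.24 in AAV-HSA hearts. Of the 6 AAV-VEGF-B hearts, 3 lay below every control. The female of replicate 5 lay among the higher controls, and the males of replicates 4 and 6 lay just above the lowest control, the male of replicate 3. The mean was 5.51 ± 0.44 in AAV-VEGF-B hearts and 6.08 ± 0.57 in AAV-HSA hearts (SD, n = 6 each). The log2 change was -0.57 (SE 0.25, 95% interval -1.10 to -0.05) and did not pass (limma, adjusted p = 0.2; exact permutation test of the single gene, two-sided p = 0.082).

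Angptl4, the secreted lipase inhibitor, had only a bound in these ventricles. Its brighter probe was above background in 0 of 6 AAV-VEGF-B hearts and in 1 of 6 AAV-HSA hearts, the male of replicate 5. Its signal ran from 127.7 to 175.0 in AAV-VEGF-B hearts, with a median of 143.9, and from 157.8 to 208.5 in AAV-HSA hearts, with a median of 172.1. The second probe was above background on 0 of the 12 arrays. No fold is given, since the mean of the AAV-HSA hearts did not exceed the lowest signal that could be told from background on the AAV-VEGF-B arrays. A level of Angptl4 RNA below this limit was not detectable on these arrays.

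The second question was whether the differences held at each duration. After 2 months, in females, the log2 change was -0.80 for Pdk4 (SE 0.25), -0.60 for Acot2 (SE 0.19), -0.80 for Acot1 (SE 0.32), -0.25 for Ucp3 (SE 0.15) and 0.03 for Ucp2 (SE 0.13). None of the 5 passed (limma, adjusted p of 0.11 to 0.92), against 3.32% of all probes called. For Pdk4 and Acot2 the 3 AAV-VEGF-B hearts lay below the 3 AAV-HSA hearts without overlap, as did 11.3% of all probes. Pdk4 passed when the AAV-HSA male of replicate 5, whose deviation enters the common spread, was left out (adjusted p = 0.048). Exact permutation of 3 against 3 hearts cannot give a p under 0.1.

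After 4 months, in males, the log2 change was -0.51 for Ucp3 (SE 0.15), -0.50 for Pdk4 (SE 0.25), -0.38 for Ucp2 (SE 0.13) and -0.19 for Acot2 (SE 0.19). None of the 5 tested members passed (limma, adjusted p of 0.17 to 0.78), against 0.788% of all probes called. For Ucp3 and Ucp2 the 3 AAV-VEGF-B hearts lay below the 3 AAV-HSA hearts without overlap, as did 8.26% of all probes. Acot1 was above background in 0 of 3 AAV-VEGF-B hearts and in 1 of 3 AAV-HSA hearts at this time (limma, adjusted p = 0.75). No fold or bound is given for it, since the control mean also holds hearts that were not above background. The members without overlap between the vectors were thus Pdk4 and Acot2 in the females and Ucp2 and Ucp3 in the males.

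The difference between the durations was tested directly. It was -0.41 for Ucp2 (SE 0.18), whose 2-month change lay near 0, and 0.41 for Acot2 (SE 0.27), whose 2-month change was the lower one. It was 0.30 for Pdk4 (SE 0.36) and -0.26 for Ucp3 (SE 0.21). For Acot1 no value is given, since no AAV-VEGF-B heart was above background at 4 months. None of these 4 passed (limma, adjusted p of 0.94 to 0.97), and 0 of all probes were called (0%), with 5.27% at an unadjusted p under 0.05. Ucp2 was the 1 member under that level (limma, unadjusted p = 0.041). A change below 0 at both durations was found in 3 of these 4 members, Pdk4, Ucp3 and Acot2, against 37.0% of all probes.

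**Figure D2:**
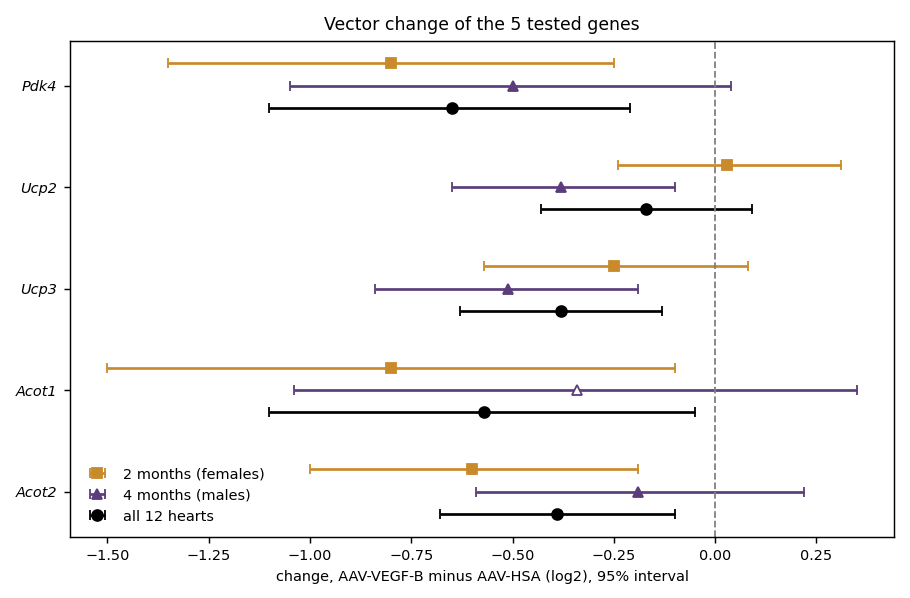
Log2 change (AAV-VEGF-B minus AAV-HSA) of the 5 tested genes with its 95% interval from limma, for 2-month females, 4-month males and all 12 hearts, with an open symbol for Acot1 at 4 months, where no AAV-VEGF-B heart was above background and the fitted value is no measured change. Over all hearts the intervals of Pdk4, Ucp3, Acot1 and Acot2 lie below 0 and that of Ucp2 spans 0, and the intervals of the 2 durations overlap for every gene.

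The levels were next compared between 4-month males and 2-month females, over both vectors. Pdk4 had a mean of 9.63 ± 0.48 in 4-month males and 9.18 ± 0.51 in 2-month females (SD, n = 6 each), a log2 difference of 0.46 (SE 0.18, limma, adjusted p = 0.22). Ucp2 had a mean of 12.45 ± 0.24 in 4-month males and 12.18 ± 0.15 in 2-month females (SD, n = 6 each), a difference of 0.27 (SE 0.09, limma, adjusted p = 0.16). Within each of these groups the spread includes both vectors. The difference was -0.19 for Ucp3 (SE 0.11) and 0.03 for Acot2 (SE 0.13). The fitted value for Acot1 was -0.41 (SE 0.23). Its probe was above background in only 1 of the 6 males, so this is no measured difference. No member passed, against 1.06% of all probes called. Ranked by the 4 group means, Pdk4 was lowest in AAV-VEGF-B females (8.78 ± 0.31), followed by AAV-VEGF-B males (9.38 ± 0.30), AAV-HSA females (9.58 ± 0.29) and AAV-HSA males (9.89 ± 0.54; SD, n = 3 each), and each of the last 3 groups overlapped with its neighbour in this order, while the AAV-VEGF-B females lay below all other hearts.

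The members were then set beside 67 other genes known as PPAR-alpha targets, of which 56 had a named probe and 49 were tested. Of these, 14 fell and 0 rose in the AAV-VEGF-B hearts (limma, adjusted p under 0.05), against 1.03% of all probes lower and 4.17% higher. In all, 46 of the 49 had a change below 0, with a median of -0.23. The 4 genes with the smallest p follow. Hadha, the alpha chain of the trifunctional protein of mitochondrial beta-oxidation, was 11.80 ± 0.12 in AAV-VEGF-B hearts and 12.29 ± 0.13 in AAV-HSA hearts (SD, n = 6 each), a log2 change of -0.50 (SE 0.08, adjusted p = 0.0023). Slc22a5, the carnitine transporter, changed by -0.37 (SE 0.07, adjusted p = 0.0042). Aqp7, a glycerol channel, changed by -0.65 (SE 0.13, adjusted p = 0.0084), and Crat, carnitine acetyltransferase, by -0.37 (SE 0.08, adjusted p = 0.01). Pdk4 had the same fitted change as Aqp7, with a larger error, 0.21 against 0.13.

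**Figure D3:**
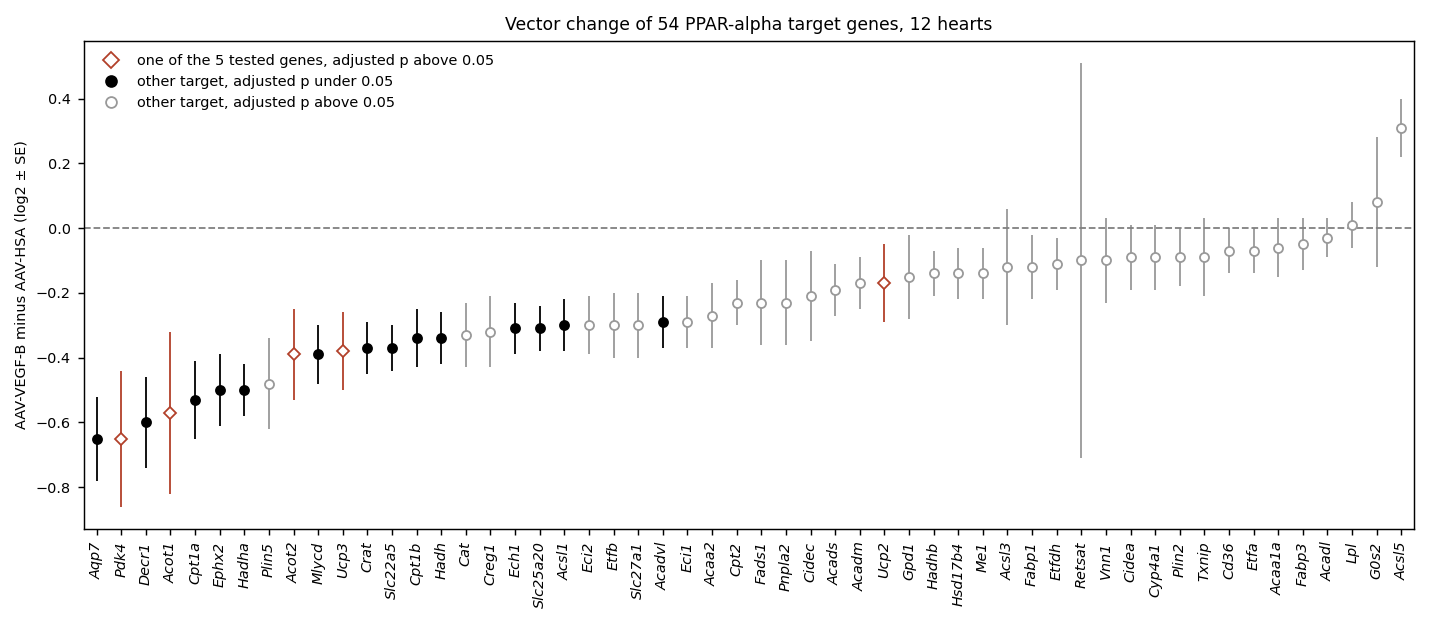
Log2 change (AAV-VEGF-B minus AAV-HSA, ± SE) of the 5 tested genes (diamonds) and 49 other PPAR-alpha targets (circles, filled where the adjusted p was under 0.05), ordered by change. The 14 filled points all lie below 0, and the diamonds lie between -0.65 and -0.17, with error bars that are wider for Pdk4 and Acot1 than for the filled points.

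That count depended on the scaling of the arrays. After scaling to a common median in place of quantile normalization, 4 of the 49 were lower and 1 was higher, and 40 had a change below 0. The median change over all probes was then 0.0754, and the 49 genes lay 0.23 below it, against 0.20 below it with quantile normalization. After 2 months 11 of the 49 were lower, against 0.788% of all probes. After 4 months 0 were lower, against 0.0389% of all probes, and 15 were lower at an unadjusted p under 0.05, against 4.49%. Of the 49, 0 passed the test of the difference between durations (3 at an unadjusted p under 0.05, against 5.27% of all probes). The count of 11 fell to 1 without the AAV-VEGF-B heart of replicate 1 or the AAV-HSA heart of replicate 2.

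Among the receptor and its partners, 2 of 16 tested genes passed, both lower, against 1.03% of all probes lower. After median scaling the list had 0 lower genes and 1 higher gene. Lpin1, a phosphatidate phosphatase that also acts as a coactivator of PPAR-alpha, changed by -0.45 (SE 0.08, limma, adjusted p = 0.0051), and missed the threshold in 1 of 19 alternatives, median scaling (-0.32, adjusted p = 0.067). Nr0b2, a receptor without a DNA-binding domain, changed by -0.26 (SE 0.07, adjusted p = 0.048) and missed the threshold in 15 of 19 alternatives. Ppara itself was 6.33 ± 0.23 in AAV-VEGF-B hearts and 6.57 ± 0.23 in AAV-HSA hearts (SD, n = 6 each), a change of -0.24 (SE 0.12) that did not pass (adjusted p = 0.28). Pparg, the related receptor of fat cells, had the highest change of the list, 0.54 (SE 0.16), and did not pass either (adjusted p = 0.066, and 0.011 to 0.14 over 18 alternatives, of which it passed in 3).

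The closest relatives of the members were taken in turn, several of them named after their values were seen. Of 12 genes of the pyruvate dehydrogenase complex and its regulators, 0 passed (3 were lower at an unadjusted p under 0.05, with 9.38% of all probes as background). The other kinases of the family had changes of -0.01 for Pdk1 (SE 0.09), -0.13 for Pdk2 (SE 0.09) and 0.15 for Pdk3 (SE 0.11). Pdp2, the phosphatase that reverses the kinases, had the smallest p of the group, with a change of -0.41 (SE 0.13, limma, adjusted p = 0.092), ahead of Pdhb, a subunit of the complex, with -0.18 (adjusted p = 0.19). Pdk4, at -0.65, thus lay below the other 3 kinases, and the difference between the genes was not tested.

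Of 8 other mitochondrial carriers tested beside Ucp2 and Ucp3, 0 passed (1 was higher at an unadjusted p under 0.05, with 10.6% of all probes as background). Slc25a14, an uncoupling carrier first known from brain, had a change of 0.34 (SE 0.13, limma, adjusted p = 0.14) and Slc25a5, an ADP/ATP carrier, of -0.13 (adjusted p = 0.31). Of 8 other thioesterases tested beside Acot1 and Acot2, 1 rose, against 4.17% of all probes higher. It was Olah, which releases fatty acids from fatty acid synthase, with 6.63 ± 0.19 in AAV-VEGF-B hearts and 5.83 ± 0.22 in AAV-HSA hearts (SD, n = 6 each), a log2 change of 0.80 (SE 0.11, adjusted p = 6.4e-04). The Olah probe was not above background on all 12 arrays. Its change ran from 0.33 to 0.89 over 18 alternatives and passed in each. Acot3, a peroxisomal thioesterase in mice, had a change of -0.25 (SE 0.10, adjusted p = 0.17).

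Of 7 genes tested beside Angptl4 for lipoprotein lipase and its regulators, 0 passed. At an unadjusted p under 0.05, 4 of the 7 were higher, against 10.6% of all probes, and with median scaling 3 of the 7 passed, all higher. Lpl, the lipase that Angptl4 inhibits, was 15.06 ± 0.08 in AAV-VEGF-B hearts and 15.05 ± 0.06 in AAV-HSA hearts (SD, n = 6 each), a change of 0.01 (SE 0.07, limma, adjusted p = 0.95). Apoe, a lipoprotein ligand, had a change of 0.32 (adjusted p = 0.076) and Lmf2, a lipase maturation factor, of 0.24 (adjusted p = 0.14). The levels of Lpl differed between the vectors by less than the spread of the hearts, while Angptl4 was above background in 1 of the 12 hearts, the AAV-HSA male of replicate 5.

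Pdk4 and Angptl4 are also known to respond to glucocorticoids and fasting, so genes of those responses were counted. Of 16 glucocorticoid-responsive genes, 3 rose and 0 fell, against 4.17% of all probes higher and 1.03% lower. These were Sgk1 (log2 change 1.29, SE 0.11, limma, adjusted p = 3.5e-05), Lcn2 (1.32, SE 0.13, adjusted p = 8.5e-05) and Ddit4 (1.02, SE 0.20, adjusted p = 0.0082), which are a kinase, an iron-scavenging secreted protein and an inhibitor of mTOR. Of 13 genes of the FoxO and fasting response of muscle, 0 passed, and 1 was higher at an unadjusted p under 0.05, against 10.6% of all probes. It was Ctsl, a lysosomal protease, with a change of 0.29 (adjusted p = 0.082), followed by Trim63, a muscle ubiquitin ligase, with -0.20 (adjusted p = 0.27). Of 12 circadian clock genes, 0 passed, and 1 was lower at that level, against 9.38% of all probes. It was Dbp, an output gene of the clock, with -0.34 (adjusted p = 0.11), followed by the clock gene Per1 with 0.61 (adjusted p = 0.38). Of 16 hypoxia-responsive genes 1 rose, which was again Ddit4. Their part in the levels of the members was not tested.

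Markers of other cells moved with the vector, with 4.17% of all probes higher and 1.03% lower as background. Of 12 tested endothelial markers, 7 rose and 0 fell, led by Emcn (0.71), Adgrl4 (0.73), Tie1 (0.72) and Icam2 (0.57), with a median change of 0.49. Their summed level ran from 13.56 to 13.81 in AAV-VEGF-B hearts and from 13.07 to 13.41 in AAV-HSA hearts, without overlap. Of 7 smooth muscle and pericyte markers, 4 rose: Higd1b (0.61), Mcam (1.00), Cspg4 (0.49) and Kcnj8 (0.44), of which Kcnj8 missed the threshold in 11 of 19 alternatives. Their summed level reached 12.18 in AAV-VEGF-B hearts, the lowest of which lay within the range of the AAV-HSA hearts, 11.76 to 12.05. Of 17 cardiomyocyte markers, 0 passed, and 0 had an unadjusted p under 0.05. Their median change was -0.02, and their summed level ran from 18.51 to 18.60 in AAV-VEGF-B hearts and from 18.53 to 18.62 in AAV-HSA hearts. The cardiomyocyte markers with the smallest p were Myl2 (-0.15) and Ckm (-0.06). The part of the vascular markers in the levels of the members was not tested, and the summed cardiomyocyte markers overlapped between the vectors.

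Of 8 macrophage and leukocyte markers, 1 rose, Aif1 (0.52, limma, adjusted p = 0.028). Among 6 red blood cell genes, 1 rose, Ahsp, a chaperone of alpha-globin (1.15, adjusted p = 0.03). The background for both was 4.17% of all probes higher. Aif1 missed the threshold in 7 of 19 alternatives and Ahsp in 10 of 18. The summed level of both lists overlapped between the vectors, at 11.14 to 11.66 in AAV-VEGF-B hearts and 11.21 to 11.55 in AAV-HSA hearts for the macrophage list, and at 16.24 to 16.47 in AAV-VEGF-B hearts and 16.08 to 16.49 in AAV-HSA hearts for the red cell list. Of 12 fibroblast markers 0 passed, with Col3a1 at 1.04 (limma, adjusted p = 0.079) and Tcf21 at -0.34 (adjusted p = 0.1). At an unadjusted p under 0.05 there were 4, 2 in each direction, against 10.6% of all probes higher and 9.38% lower. The summed fibroblast level was 15.31 to 15.82 in AAV-VEGF-B hearts and 15.39 to 15.59 in AAV-HSA hearts. Of 5 adipocyte markers 0 passed, with Fabp4 at 0.33 (limma, adjusted p = 0.058) and Pparg as above. At an unadjusted p under 0.05, 2 were higher, against 10.6% of all probes. The summed adipocyte level was 13.38 to 13.60 in AAV-VEGF-B hearts and 12.92 to 13.46 in AAV-HSA hearts.

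Genes of the atria were counted as well. Of 5 tested atrial genes, 0 passed over all hearts, with Nr2f2 at 0.34 (limma, adjusted p = 0.14) and Nr2f1 at 0.27 (adjusted p = 0.43). After 2 months 0 passed as well, while 4 had an unadjusted p under 0.05, all of them higher, against 18.7% of all probes in either direction, with a median change of 0.54. After 4 months the median change was 0.00, and the difference between the durations passed for 0 of the 5. Nppa, the atrial natriuretic peptide, and Myl7, the atrial light chain, were chosen after their values were seen. Nppa was 13.95, 12.68 and 13.07 in AAV-VEGF-B females, against 10.49, 11.37 and 11.68 in AAV-HSA females (change 2.05, SE 0.55, limma, adjusted p = 0.063). These values did not overlap, and 11.1% of all probes were likewise higher without overlap after 2 months. In males it was 9.02, 9.25 and 11.07 with AAV-VEGF-B, against 9.39, 10.68 and 8.84 with AAV-HSA. Myl7 was 9.09, 9.34 and 7.58 in AAV-VEGF-B females, against 6.74, 7.74 and 7.85 in AAV-HSA females, with overlap. Its change after 2 months was 1.23 (SE 0.44, limma, adjusted p = 0.16). Over both vectors both genes were lower in 4-month males than in 2-month females (Nppa -2.50, adjusted p = 0.015; Myl7 -1.43, adjusted p = 0.049), against 0.613% of all probes lower. The summed level of the list was 12.88 to 14.03 in AAV-VEGF-B females, against 10.85 to 11.87 in AAV-HSA females, and 9.87 to 11.30 in AAV-VEGF-B males, against 9.67 to 11.03 in AAV-HSA males. Nppa and the summed level, but not Myl7, thus lay above all AAV-HSA females in the 3 hearts where Pdk4 and Acot2 lay below them. In these 3 hearts the sum was mostly Nppa (14.03, 12.88 and 13.16 against 13.95, 12.68 and 13.07). The study also lists the gene of this peptide (Anp) among those tied to pathological remodeling of the heart. Whether its RNA came from atrial or ventricular cells was not tested. The part of the atrial genes in the differences of Pdk4 and Acot2 and in the 11 other targets lower after 2 months was not tested. That count of 11 ran from 1 to 9 when any 1 heart was left out. It also fell without a male, to 6 without the AAV-VEGF-B male of replicate 4. The count over all probes was 341 and ran from 80 to 323 without 1 heart.

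Whether the members varied together from heart to heart was examined over their 10 pairs. The highest correlations over the 12 hearts were those of Ucp3 with Acot1 (r = 0.55, permutation p = 0.067; rho = 0.43, permutation p = 0.17) and of Acot1 with Acot2 (r = 0.54, permutation p = 0.072; rho = 0.50, permutation p = 0.1). Adjusted over the 10 pairs, the p of r was 0.28 for both pairs, and that of rho was 0.55. Without the 2 hearts farthest from the median, r was 0.16 for Ucp3 with Acot1 and 0.18 for Acot1 with Acot2, so the relation rested on those hearts. These coefficients pool groups with different means. Taken as deviations from the 4 group means, and as a description, r was highest for Pdk4 with Acot1 (0.59) and Pdk4 with Ucp3 (0.56), and was 0.25 for Ucp3 with Acot1 and 0.30 for Acot1 with Acot2. Over the 12 hearts, r of Pdk4 was 0.46 with Acot1, 0.45 with Ucp3, 0.45 with Acot2 and 0.36 with Ucp2 (permutation p of 0.14 to 0.25, adjusted p of 0.28 to 0.41). Within a duration, over 6 hearts each, 0 of 20 correlations passed (exact permutation, lowest adjusted p = 0.14). At 4 months r was 0.91 for Pdk4 with Acot1 (exact permutation p = 0.029; rho = 0.71, exact p = 0.14) and 0.85 for Pdk4 with Ucp3 (exact permutation p = 0.014; rho = 0.66, exact p = 0.17). Both rested on the 2 hearts farthest from the median of Pdk4, without which r was -0.29 and 0.27, and Acot1 was above background in 1 of these 6 hearts. For Pdk4 and Acot2 no coefficient is given at 2 months, since the hearts of each vector formed separate groups for both genes, and at 4 months r was -0.30 (exact permutation p = 0.62).

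**Figure D4:**
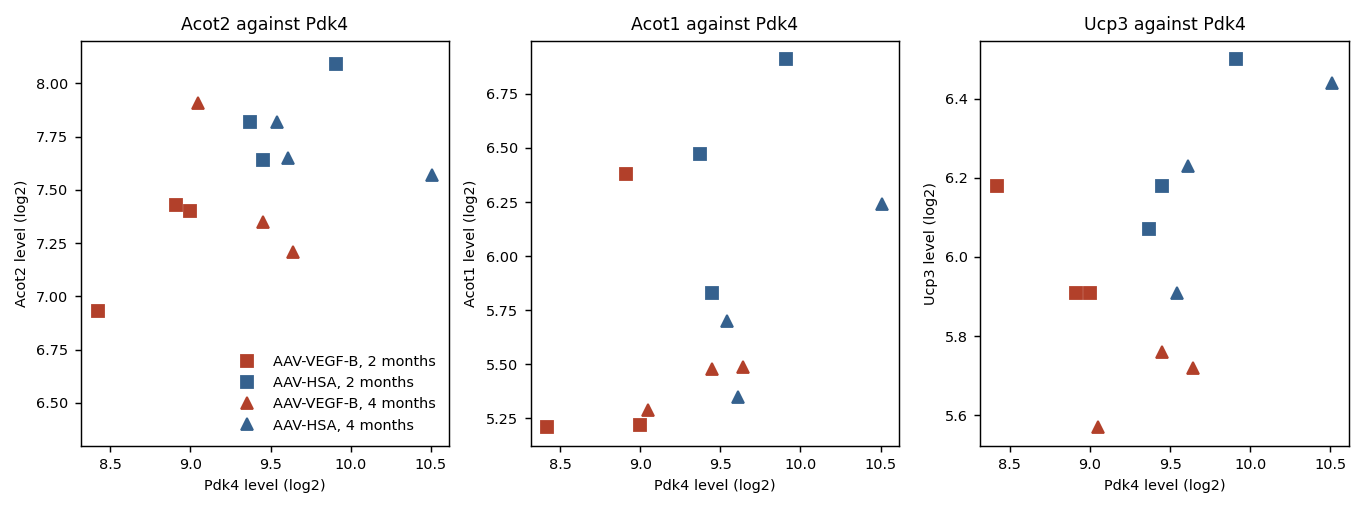
Level of Acot2, Acot1 and Ucp3 against that of Pdk4 (log2), 1 point per heart, by vector (colour) and months of expression (shape). The AAV-HSA male at a Pdk4 level of 10.51 is the farthest point on the Pdk4 axis, and at 2 months the AAV-VEGF-B hearts (squares) lie lower than the AAV-HSA hearts for Pdk4 and Acot2.

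The heart with the highest level also differed between members. The AAV-HSA female of replicate 2 had the highest Ucp3 (6.50), Acot1 (6.91) and Acot2 (8.09). The AAV-HSA male of replicate 5 had the highest Pdk4 (10.51) and the highest Angptl4 (6.40). Without that male the change of Pdk4 was -0.50.

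Among 7437 tested genes, those with a pattern most like that of a member over the 12 hearts were looked up as a description. For Pdk4 they were Abca2 (r = 0.93), Ift57 (0.87) and Gpi (0.87). For Ucp2 they were Dcaf15 (0.91), Gpaa1 (0.86) and Ndfip1 (0.84), and for Ucp3 they were Gphn (0.89), Cherp (0.89) and Meis2 (0.88). For Acot1 they were Macrod1 (0.94), the rat's own Vegfb (0.91) and Ppfibp1 (0.88). The Acot1 probe was above background on only 5 of the 12 arrays, so most points of this pattern were not above background. How far the pattern reflects background signal was not tested. For Acot2 they were Nsmce1 (0.88), Ptges2 (0.86) and Mrpl28 (0.86). No member was among the 3 nearest genes of another. The points share the 2 vectors, the durations and the array normalization.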

How the data were processed

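Left ventricular RNA of 12 rats was measured on Illumina rat bead arrays. The authors deposited non-normalized signal intensity values exported from GenomeStudio, each with a detection p-value, and log2 values of the same arrays. These deposited log2 values lay within 0.005 of log2 quantile-normalized signals without background correction. Per the methods, the authors used quantile normalization and empirical Bayes statistics in Chipster.

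Here, signals were processed with neqc in limma 3.58.1 (R 4.3.3), that is normexp (using detection p-values, offset 16), then quantile normalization, then log2. To be tested, a probe had to have a detection p under 0.05 on 3 or more arrays (10281 of 22517 did). Tests used lmFit and eBayes, without covariates for the vector change and as 4 groups of vector and duration for the others. The Benjamini-Hochberg adjustment ran over all tested probes, with a threshold of 0.05. Single members were also tested by exact permutation (924 regroupings, smallest p 0.0022), and correlations with 100000 resamples. Summed levels are log2 of the sum of the list's normalized signals. The scripts were tested on simulated data. The number of arrays limits the precision, and pairs of arrays correlated at 0.981 to 0.991.

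Groups, durations and sexes came from the labels. The labels do not say that arrays came from separate litters or injections, so p-values measure the spread between these hearts. Gene symbols came from the platform annotation (13787 probes with 1 symbol, 8730 with none here, 0 with several). For 13747 probes the gene identifier was found in RefSeq GRCr8. The promoters of all 6 members were found in the RefSeq table. The rule for named genes took the 6 members, Ppara and Lpl; in each gene list up to 4 called genes with the smallest p or, where none was called, the 2 with the smallest p; and the 3 genes with the nearest pattern to each member. Pdk1, Pdk2, Pdk3, Acot3, Nppa and Myl7 fall outside it. The members and lists were chosen with earlier results of these data known. The same replicate number stands for different durations in the 2 vectors, so the numbers pair no hearts. Alternatives were no background correction, median scaling, the deposited log2 table, other filters, blocks and leaving out each array.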

Additional observations from a re-analysis of the deposited data

Results flagged for a closer look

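In groups of 6 hearts, 12 groups (6 genes by 2 vectors) were examined for a heart far from the others, and 2 stood out. Chance gives such a gap in about 1 of 20 groups. For Acot1, the AAV-VEGF-B heart of replicate 5, a 2-month female, was at 6.38 while the other 5 lay between 5.21 and 5.49 (gap over range 0.763). It was the 1 AAV-VEGF-B heart in which Acot1 was above background, so that without it the AAV-VEGF-B group had no heart above background. For Angptl4, the AAV-HSA heart of replicate 5, a 4-month male, was at 6.40 while the other 5 lay between 5.34 and 5.68 (gap over range 0.68). It was the 1 heart of the 12 in which Angptl4 was above background, and the same heart had the highest Pdk4 level.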

How the results depend on the processing

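Of the members, all 5 changes over the 12 hearts stayed below 0 in the 18 or 19 alternatives each was run in. Acot1 and Ucp2 passed in none of theirs. Pdk4 (-0.65) passed with the duration and sex group as a block. Leaving out 1 heart, the change ran from -0.76 to -0.50 for Pdk4, from -0.45 to -0.32 for Ucp3 and from -0.50 to -0.30 for Acot2. Without background correction the changes were smaller, -0.16 for Ucp3 (against -0.38), -0.27 for Acot1 (against -0.57) and -0.23 for Acot2 (against -0.39), with a median of -0.23 over the members (against -0.39), and the deposited log2 table gave -0.15, -0.27 and -0.23 for these genes. With median scaling Acot2 was -0.24. Exact permutation gave an unadjusted p under 0.05 for 3 of 5 members, and for 1 to 4 of them when 1 heart was left out, with the 1 without the AAV-VEGF-B heart of replicate 3. The count of probes called by vector was 535 (429 higher, 106 lower), 869 with median scaling (842 higher, 27 lower) and 371 to 530 without 1 heart. The median change over all probes was -0.0244, and 0.0754 with median scaling. After 2 months the count was 341, against 626 with median scaling and 80 (without the AAV-VEGF-B heart of replicate 1) to 323 without 1 heart. After 4 months it was 81, against 136 without background correction, 136 with the deposited log2 table, 127 with median scaling and 7 (without the AAV-HSA heart of replicate 3) to 78 without 1 heart. Between 4-month males and 2-month females it was 109, against 251 without background correction, 250 with the deposited table, 69 without a filter and 25 (without the AAV-HSA heart of replicate 5) to 108 without 1 heart. The causes were not tested. Of the 49 other PPAR-alpha targets, 14 were lower, against 4 with median scaling and 9 (without the AAV-VEGF-B heart of replicate 1) to 14 without 1 heart. After 2 months, 11 were lower, against 1 with median scaling and 1 to 9 without 1 heart. Changes near 0 turned in sign. Leaving out 1 heart, Ucp2 after 2 months ran from -0.08 to 0.16, Acot2 in 4-month males against 2-month females (both vectors, 0.03) from -0.07 to 0.10, Pdk1 from -0.05 to 0.03 and Lpl from -0.01 to 0.03. With median scaling Pdk1 was 0.03 and Lpl was -0.01. Of the 10 pairs of members, 9.0 had r above 0, 6.0 as deviations from the 4 group means and 9.0 with the deposited table.

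With the replicate number as a block (replicate block), 342 probes were called and 6 of the 49 other targets were lower. Hearts of the same number deviated with correlations of -0.195 to -0.049, and the block changed the call of no member. The other probe of Angptl4 was too dim to be tested, and the chip was not given in the sources used here, so neither alternative was run. Acot1, Ucp3 and Angptl4 lay near the background, which limits what can be read from their levels.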
